A study of Mus musculus with 8 samples.

Results

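Lens FC of mice expressed 105 genes of the class antisense at a mean of at least 1.0 FPKM in CS-exposed or in untreated Ct mice. FPKM is a fragment count normalised for gene length and library depth. The 105 genes were taken from 1731 rows of this class (6.07%) in a table of 35275 genes, and were selected on the mean FPKM of the 4 libraries of each group. The class is that of the deposited values. Of 102 genes matched to the annotation GENCODE M21, 94 are antisense there. The others are 2 bidirectional promoter lncRNAs, 2 processed transcripts, 1 lincRNA, 1 protein-coding gene, 1 snRNA and 1 pseudogene. Both means passed in 86 genes, only the CS-exposed mean in 7 and only the untreated Ct mean in 12, so the 19 genes that passed through 1 group were selected partly for a difference between groups. In all, 832 of the 1731 rows were listed at 0 in every library. In comparison, 41.9% of protein-coding rows passed the same minimum.

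The mice were C57BL/6 per the labels (C57BL/6J in the methods of the study), and the labels name no transgene or deletion. The CS-exposed mice were kept in a whole-body smoke chamber from just before birth for 3.5 months, 5 hours a day and 5 days a week, and the untreated Ct mice were of the same age and were not exposed. Each of the 4 libraries of a group came from RNA of a pool of FC from the eyes of 4 mice, so differences between single animals were not measured. By the methods of the study 2 pools of each group were male and 2 female, but the labels do not say which, so sex was not a term of the fit and its part in the spread between pools was not tested. The FC were dissected away from the lens epithelium by eye at the microscope, which leaves room for other cells.

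An antisense gene is transcribed from the strand opposite to another gene, its partner. Such transcripts are mostly long noncoding RNAs (lncRNAs), and some act on the partner in cis. Airn is the textbook case, since its transcription across the start of Igf2r silences the paternal Igf2r allele in many tissues. Others start beside the promoter of a transcription factor gene and run away from it, and for most no function is known.

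The sequences of 3 promoters are shown because the genes stand for the best known antisense lncRNA (Airn) and for 2 genes with higher values in CS-exposed lens FC (Gm11266, antisense to Nfib, and 4930579G18Rik, antisense to Acin1). They cover 250 bases before to 50 bases after the start of the gene in RefSeq (GRCm38.p6), on the strand of the antisense gene. The capitals mark the motif TATAA, the motif CCAAT and the motif GGGCGG on either strand. The Airn window lies at chr17:12741061-12741360 (+), the Gm11266 window at chr4:82507739-82508038 (+) inside Nfib, and the 4930579G18Rik window at chr14:54650261-54650560 (+) inside Acin1.
Airn: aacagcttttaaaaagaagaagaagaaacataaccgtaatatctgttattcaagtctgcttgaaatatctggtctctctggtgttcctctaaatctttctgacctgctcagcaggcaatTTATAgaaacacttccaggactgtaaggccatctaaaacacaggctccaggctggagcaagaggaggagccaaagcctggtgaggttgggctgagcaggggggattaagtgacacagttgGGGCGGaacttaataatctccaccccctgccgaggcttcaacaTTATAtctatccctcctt
Gm11266: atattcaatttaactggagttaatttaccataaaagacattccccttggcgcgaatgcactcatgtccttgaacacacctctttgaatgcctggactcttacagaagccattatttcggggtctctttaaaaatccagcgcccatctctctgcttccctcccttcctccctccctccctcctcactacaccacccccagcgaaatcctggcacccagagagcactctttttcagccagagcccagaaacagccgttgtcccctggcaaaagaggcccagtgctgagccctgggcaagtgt
4930579G18Rik: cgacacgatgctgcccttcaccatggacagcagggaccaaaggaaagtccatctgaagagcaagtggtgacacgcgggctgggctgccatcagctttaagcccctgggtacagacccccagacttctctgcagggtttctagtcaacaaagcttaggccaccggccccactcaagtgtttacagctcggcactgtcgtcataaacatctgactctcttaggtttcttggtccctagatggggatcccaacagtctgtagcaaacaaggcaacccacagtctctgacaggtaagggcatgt

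The Airn window held TATAA at 2 places, both on the opposite strand (TTATA as printed), and GGGCGG once, with 3 CG dinucleotides. None of the 3 motifs was found in the windows of Gm11266 and 4930579G18Rik, which held 6 and 7 CG dinucleotides. RefSeq windows were found for 53 of the 105 genes (68 windows). TATAA was found in 16.2% of these windows and in 24.9% of all 32851 RefSeq windows, CCAAT in 33.8% and 37.4%, and GGGCGG in 42.6% and 35.7%. At least 20 CG dinucleotides were present in 45.6% of the windows of antisense genes and in 26.5% of all windows. Many of these genes start within a short distance of the partner, so that the windows of both genes can share bases.

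The last 300 bases of the transcripts of Sox5os2 and 1700058P15Rik are shown as GENCODE M21 (GRCm38) gives them, the first because it was the third most abundant antisense gene and lies inside Sox5 with no overlap of exons, the second because its CS-exposed and untreated Ct values did not overlap, though it passed the minimum only in CS-exposed lens FC. Sox5os2 lies at chr6:144481225-144501416 (+) with a transcript of 627 bases, and 1700058P15Rik lies at chr7:19258492-19259739 (+) with a transcript of 413 bases. The capitals mark the polyadenylation signals AATAAA and ATTAAA where they occur in the last 50 bases.
Sox5os2: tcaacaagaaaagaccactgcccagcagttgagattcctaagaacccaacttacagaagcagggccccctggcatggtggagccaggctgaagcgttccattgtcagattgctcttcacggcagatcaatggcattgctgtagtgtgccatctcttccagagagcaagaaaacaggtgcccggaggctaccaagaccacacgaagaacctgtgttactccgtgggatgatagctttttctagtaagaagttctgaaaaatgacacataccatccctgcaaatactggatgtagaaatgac
1700058P15Rik: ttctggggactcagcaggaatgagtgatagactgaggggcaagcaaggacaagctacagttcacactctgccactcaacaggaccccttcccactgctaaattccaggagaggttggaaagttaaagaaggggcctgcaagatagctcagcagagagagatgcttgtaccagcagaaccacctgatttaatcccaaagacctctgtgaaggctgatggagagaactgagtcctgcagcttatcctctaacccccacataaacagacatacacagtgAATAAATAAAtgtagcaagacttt

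The 1700058P15Rik transcript ends with overlapping AATAAA motifs that begin 24 and 20 bases before its end, and no such motif was found in the last 50 bases of Sox5os2. Of the 102 antisense genes matched to GENCODE, 59 (57.8%) had 1 of these signals in the last 50 bases of a transcript. The share was 46.2% of 1330 antisense genes under the minimum and 90.4% of 8795 protein-coding genes tested. A gene was counted if any of its transcripts held a signal, and the number of transcripts per gene was not matched between these sets. The 102 genes had a median of 3 exons and 867 exonic bases, against 10 exons and 4538 bases for the protein-coding genes.

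Most antisense genes were low. The median was 1.95 FPKM, against 4.68 FPKM over all 9794 genes at or above the minimum. In 56 genes the mean was under 2 FPKM, and 8 genes reached 10 FPKM. Just inside the minimum were 1810034E14Rik (larger group mean 1.02 FPKM), Gm16586 (1.02 FPKM) and Tspan32os (1.04 FPKM), and just outside it Gm17115 (0.994 FPKM), Gm13027 (0.993 FPKM) and 2700069I18Rik (0.988 FPKM). The whole reads behind the FPKM could be recovered from the steps of the values for all 105 genes, with a median of 32 reads behind a value, against 313 reads over all genes tested. In 70 of the 105 genes the median was under 50 reads, so that single values of these genes carry a large counting error.

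By position, 47 of the 105 genes had exons that overlap exons of the partner on the other strand, by a median of 143 bases (3 to 1553), and 33 overlapped the body of the partner with no exonic base of one shared with an exon of the other. A further 19 did not overlap the partner taken but started within 2 kb of it, at a median distance of 130 bases. No partner was found for 3 genes, and 3 could not be matched to the annotation (Gm16022, Gm15717 and Gm16586). Of the partners, 97 were protein coding. The library kit and the counting are not stated to use strand, so reads of an antisense gene and of its partner cannot be told apart where exons overlap, and intronic reads of the partner cannot be told apart from reads of an antisense gene that lies in its intron.

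The 3 highest genes held 52.3% of the summed FPKM of the 105 genes. Gm11837 (ENSMUSG00000086587.7, chr4:14929908-14953030, +) runs into the end of Necab1, which encodes a neuronal calcium-binding protein. It was measured at 177, 192, 176 and 199 FPKM in the untreated Ct libraries and at 189, 191, 197 and 196 FPKM in the CS-exposed libraries. The CS-exposed values lay inside the untreated Ct range, and the mean was 186 ± 11.3 FPKM (SD, n = 4) in untreated Ct and 193 ± 3.80 FPKM in CS-exposed lens FC. Necab1 itself was at 3.19 FPKM, so the antisense gene was 59.5 times the level of its partner.

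Prox1os (chr1:190170296-190217276, +) starts 418 bases from the start of Prox1, the homeobox factor that drives elongation of lens FC. It was at 83.4, 78.4, 70.8 and 73.96 FPKM in untreated Ct and at 76.6, 69.4, 71.9 and 81.9 FPKM in CS-exposed lens FC. The groups overlapped, with means of 76.7 ± 5.46 and 74.96 ± 5.51 FPKM (SD, n = 4 each). Its level was 1.72 times that of Prox1 (43.9 FPKM), and 133 bases of its exons overlap Prox1 exons. A second antisense gene inside Prox1, RP23-190F21.1 (Gm28172 in GENCODE), had a mean of 9.49 ± 1.99 FPKM in untreated Ct and 10.6 ± 1.29 FPKM in CS-exposed lens FC.

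Sox5os2 was at 48.4, 51.4, 45.4 and 55.6 FPKM in untreated Ct and at 53.2, 47.8, 52.1 and 65.2 FPKM in CS-exposed lens FC. Only the fourth CS-exposed library stood above the untreated Ct range. The partner Sox5, a transcription factor of cartilage and neural development, was at 0.365 FPKM, so that Sox5os2 was 144 times the level of Sox5 exons. Dmrta2os (chr4:109976738-109977813, −) starts 240 bases from Dmrta2, a DM domain factor of neural progenitors that was itself at 43.6 FPKM. Its values were 23.8, 20.96, 24.5 and 26.6 FPKM in untreated Ct and 22.2, 17.6, 22.2 and 19.5 FPKM in CS-exposed lens FC, lower in CS-exposed lens FC by 0.23 ± 0.09 (SE) on the log2 scale (limma p = 0.0280, voom on reads p = 0.0629, exact permutation p = 0.0857).

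The next 6 genes were between 7.95 and 14.96 FPKM in each group mean. They are RP23-189P1.2 in Sptbn1 (a spectrin of the membrane skeleton), RP24-167M10.2 at Ivns1abp (a kelch protein that binds actin), Gm11961 at Gm11032, RP23-190F21.1 in Prox1, Gm16537 at Gpd1 (glycerol-3-phosphate dehydrogenase) and Gm15417 at Zbtb7b (a zinc finger repressor). In each of these 6 genes the libraries of the groups overlapped and limma p was at least 0.129. The plot of the 10 highest genes shows the single libraries.

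**Figure D1:**
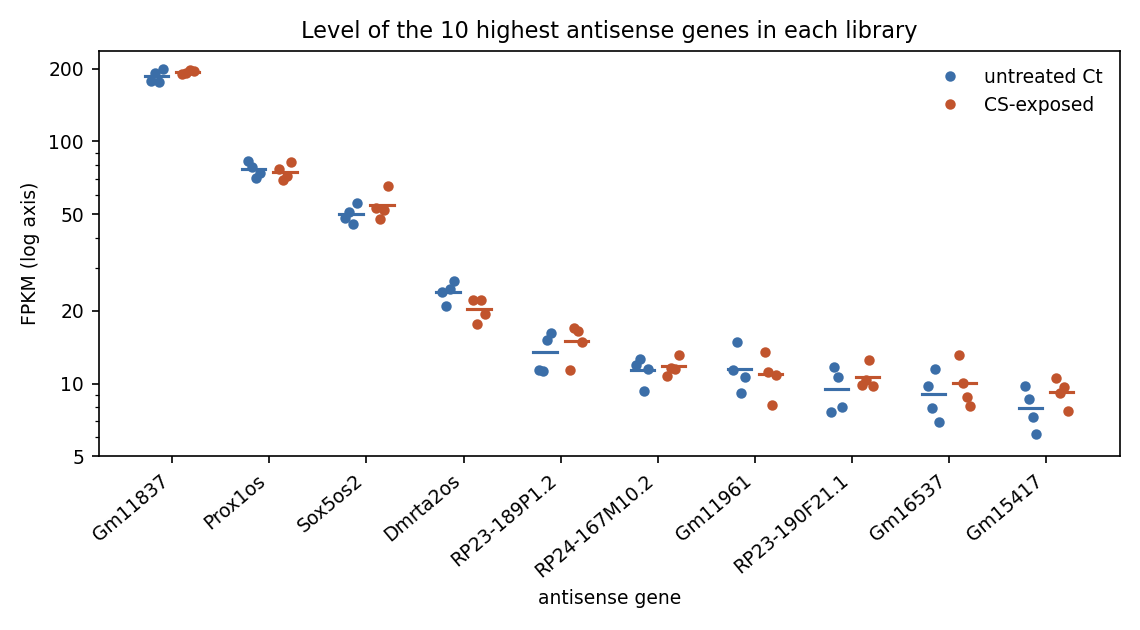
FPKM (log axis) of the 10 highest antisense genes in each library. Points are the 4 untreated Ct and the 4 CS-exposed libraries and lines the group means. Gm11837 stands at 186 and 193 FPKM, and the points of both groups share a range in every gene shown.

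Airn (chr17:12741311-12860136, +) was the one widely known imprinted antisense lncRNA that passed the minimum. It was at 5.38, 4.05, 5.19 and 4.26 FPKM in untreated Ct and at 5.03, 5.42, 7.37 and 4.71 FPKM in CS-exposed lens FC. The third CS-exposed library was the highest and the other values overlapped (log2 fold change 0.24 ± 0.15 SE, limma p = 0.131, exact permutation p = 0.229). Without that library the log2 fold change was 0.10. Igf2r, the receptor for IGF2 and mannose 6-phosphate, was at 7.86 ± 0.445 FPKM in untreated Ct and 7.84 ± 0.723 FPKM in CS-exposed lens FC. Kcnq1ot1, Tsix, Nespas and Pax6os1, which are also known by name and of the class antisense, were below the minimum. Group means in untreated Ct and CS-exposed lens FC were 0.0789 and 0.0883 FPKM for Kcnq1ot1. They were 0.0125 and 0.0161 FPKM for Tsix and 0.698 and 0.421 FPKM for Pax6os1. Nespas was listed at 0 in all libraries. Sox2ot and Six3os1, from the list of known antisense RNAs, did pass the minimum. Sox2ot was at 24.96 FPKM in untreated Ct and 24.68 FPKM in CS-exposed lens FC, and Six3os1 at 22.19 and 21.65 FPKM. The deposited class is sense overlapping for Sox2ot and processed transcript for Six3os1, so neither was counted among the antisense genes.

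Partners were usually higher than the antisense gene. Of 97 pairs with both levels, the antisense gene was higher in 22, and the median log2 ratio of antisense gene to partner was −1.56. Both values depend on which partner was taken. As an example, 5430402O13Rik (1.28 FPKM) was above its partner 4921507P07Rik (0.178 FPKM) but also starts 105 bases from Cycs (7.015 FPKM). Likewise, 1500015A07Rik, paired with Afap1l1, also starts 65 bases from Grpel2 (6.72 FPKM). Spearman rho of the levels over the 97 pairs was 0.128, a description over genes that share libraries and depth. Among the highest ratios were those of Gm15775 in Galnt2, Sox5os2 and 1500015A07Rik at Afap1l1, whose partners were under 1.0 FPKM, and that of Gm11837. Galnt2 (0.00540 FPKM) lies almost wholly within Gm20388, a gene of the same strand that was listed at 0 FPKM. How reads that fall in both genes were counted is not given, and its part in the ratio of Gm15775 was not tested. The 5 lowest ratios belonged to antisense genes whose partners were at 134 FPKM or more. Snhg9, a small nucleolar RNA host that lies inside Rps2 and shares 14 exonic bases with it, was at 0.984 FPKM (Rps2, a ribosomal protein gene, at 1811 FPKM). Gm4285 was at 3.27 FPKM beside Tpt1 (translationally controlled tumor protein, 1521 FPKM) and Gm12279 at 5.28 FPKM beside Ubb (polyubiquitin, 673 FPKM). Gm9828, whose exons overlap those of Btf3 (a basic transcription factor, 201 FPKM), was at 1.64 FPKM, and Gm15418, which overlaps the end of Col4a1 (a basement membrane collagen, 134 FPKM), at 2.25 FPKM.

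**Figure D2:**
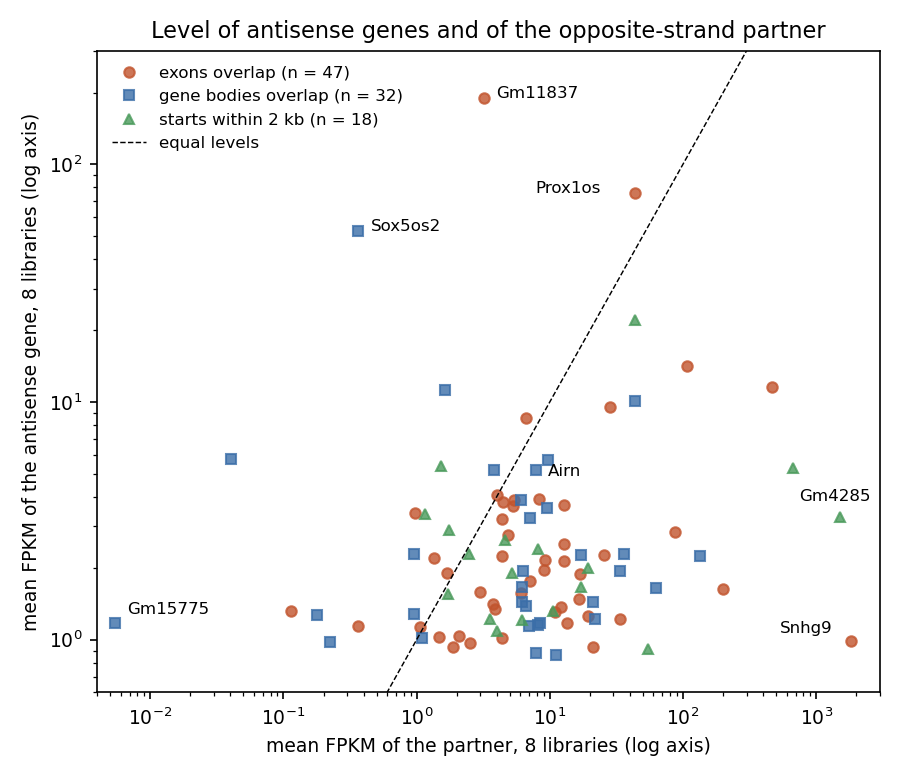
Mean FPKM of each antisense gene against that of its opposite-strand partner over the 8 libraries (log axes, 97 pairs), with the arrangement of the genes as symbols and a dashed line at equal levels. Most points lie below the line, and Gm11837, Sox5os2 and Gm15775 are among those far above it.

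By arrangement, the median log2 ratio was −1.53 where exons overlap (47 pairs), −1.78 where only gene bodies overlap (32 pairs) and −1.65 where starts lie within 2 kb (18 pairs). Leading genes not named above are Gm13091 (5.702 FPKM) inside Rere (a transcriptional corepressor), and 2810001G20Rik (5.38 FPKM) and Gm12750 (3.39 FPKM), which start 16 and 468 bases from Cox10 (a cytochrome c oxidase assembly factor) and Ttc39a. The correlation over the 8 libraries between the deviations of an antisense gene and of its partner from their group means had a median of 0.01 in 90 pairs (quartiles −0.21 and 0.32). In 14 pairs whose antisense gene had a median of at least 100 reads it was 0.27. Prox1os and Prox1 had a correlation of −0.46 and RP23-190F21.1 and Prox1 one of 0.44, each a description of 8 libraries that share depth and pool.

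A few antisense genes have a partner that marks a lens cell type. Gm16252 overlaps the start of Bfsp2, the phakinin gene of the FC beaded filament, with no overlap of exons, and was at 1.73 ± 0.595 FPKM in untreated Ct and 1.43 ± 0.542 FPKM in CS-exposed lens FC (SD, n = 4 each), whereas Bfsp2 was at 2620 FPKM. Its exons overlap those of another partner, Tmem108, by 1553 bases. Gm12867 lies in Slc2a1, the glucose transporter gene, which was used as an epithelial marker. It ranged from 0.222 to 4.36 FPKM, and its lowest value rested on 2 reads.

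The libraries carried an estimated 18100000 to 23300000 fragments. The steps of the FPKM values gave the relative depths. The scale came from GENCODE M21 exon lengths, as the commonest value over 8597 genes, which 600 of them closely shared. The 9 measured of 10 lens FC markers summed to between 292031 and 307218 FPKM, and none of the 9 was at 0. Markers of rods, 12 in all, summed to between 11.4 and 31.2 FPKM in untreated Ct and between 34.2 and 100.9 FPKM in CS-exposed lens FC, and 8 markers of retinal pigment epithelium to between 1.28 and 3.28 and between 2.76 and 25.6 FPKM, with Best1 at 0. The 8 epithelial markers covered 111 to 187 FPKM and 104 to 139 FPKM, and 6 markers of blood and immune cells 0.406 to 2.01 FPKM and 0.603 to 21.5 FPKM. The rod sums of the groups did not overlap. All 12 rod markers were higher in CS-exposed lens FC, as were 7 of 8 pigment epithelium, 5 of 6 blood and immune, 7 of 9 lens FC and 2 of 8 epithelial markers. Of 11 rod markers tested, 10 were at limma p under 0.05. This stands beside 4.83% of all genes tested and 16.9% of genes that passed the minimum in 1 group only. In pools, more cells of a type and more RNA per cell cannot be told apart. The part of these cells in the values of the antisense genes below was not tested.

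The comparison of CS-exposed with untreated Ct lens FC asked which antisense genes differ after exposure. No antisense gene passed an adjusted p of 0.05 in limma, and the smallest adjusted p was 0.762, whereas 1 of all 9794 genes did (0.0102%). By limma voom on the recovered reads the count was also 0. At an unadjusted p under 0.05, 16 of the 105 genes differed, 9 lower and 7 higher in CS-exposed lens FC, beside 4.83% of all genes tested (2.08% lower and 2.75% higher). Of these 16, 6 belong to the 19 genes that passed through 1 group only (31.6%, beside 16.9% of all genes that did so), where the selection itself favours a difference, and 10 to the 86 that passed in both (11.6%, beside 4.22%). Of the 70 genes under 50 reads, 11 were at p under 0.05 (15.7%, beside 14.1% of all tested genes with as few reads). From 50 to under 200 reads it was 3 of 28 (10.7%, beside 5.87%), and from 200 reads on 2 of 7 (28.6%, beside 3.37%).

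By voom, 10 of the 105 genes were at p under 0.05 (background 4.95%), 8 of them among the 16. Among the 86 that passed in both groups it was 5 (5.81%, beside 4.14% of all such genes). The median log2 fold change was −0.03 over the 105 genes and 0.00 over all genes tested. The summed FPKM of the 105 genes was 603 ± 20.6 in untreated Ct and 612 ± 16.8 in CS-exposed lens FC (SD, n = 4 each), a difference of 9.83 FPKM that was within the spread of the libraries (exact permutation test, two-sided, p = 0.514).

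In 6 genes no CS-exposed library overlapped an untreated Ct library, beside 3.08% of all genes tested. Among the 86 that passed the minimum in both groups there were 3 (3.49%), near the 2.69% of all such genes. These were Gm15860, 4930579G18Rik and Gm4285. Since the absence of overlap by itself fixes the exact permutation p of 4 against 4 libraries at its two-sided minimum of 0.0286, that p adds nothing to the selection of these genes.

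Gm15860 (chr5:123332726-123344437, −) starts 603 bases inside Bcl7a, which encodes a subunit of the BAF chromatin remodeling complex. It was at 4.87, 4.604, 4.84 and 3.82 FPKM in untreated Ct and at 3.28, 3.17, 2.12 and 2.83 FPKM in CS-exposed lens FC. All CS-exposed values were lower (log2 fold change −0.66 ± 0.15 SE, limma p = 0.000719, adjusted p = 0.762, voom p = 0.0381, exact permutation p fixed at its minimum), on 22 to 57 reads per library. Bcl7a was at 12.9 ± 0.875 and 12.8 ± 0.972 FPKM. Gm15860 has 976 exonic bases in GENCODE M21, which gives the overlap below, against 506 bases implied by its FPKM. The exons of the 2 genes share 13 bases, at chr5:123344265-123344277, which read on the strand of Gm15860
Gm15860: ccagaggccgcag

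4930579G18Rik (chr14:54650511-54654607, +) lies inside Acin1, a splicing factor gene whose product takes part in chromatin condensation during apoptosis. It was at 1.403, 1.62, 1.73 and 1.599 FPKM in untreated Ct and at 2.301, 2.33, 2.21 and 2.48 FPKM in CS-exposed lens FC. The CS-exposed values were all higher (log2 fold change 0.53 ± 0.13 SE, limma p = 0.00190, adjusted p = 0.931, exact permutation p fixed at its minimum) and lay close together in each group. By voom on its 27 to 52 reads p was 0.0790. Acin1 was at 9.12 ± 0.569 and 8.96 ± 0.749 FPKM.

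Gm4285 (chr14:75843379-75844964, −) starts 129 bases from Tpt1 on the other strand. It was at 2.79, 2.92, 1.91 and 1.72 FPKM in untreated Ct and at 3.68, 3.02, 3.24 and 6.87 FPKM in CS-exposed lens FC. The fourth CS-exposed library was far above the other 3, and the groups did not overlap (log2 fold change 0.78 ± 0.25 SE, limma p = 0.00987, voom p = 0.0190, exact permutation p fixed at its minimum). Without that library the log2 fold change was 0.52, and it kept its side of a limma p of 0.05. Tpt1 differed by 0.03 on the log2 scale.

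The other 3 genes without overlap passed the minimum only in the group where they were higher, so their differences are given as a description, without a test. 1700058P15Rik, inside Vasp (an actin regulator), was at 0.365, 0.368, 0.104 and 0.535 FPKM in untreated Ct and at 1.49, 1.26, 2.01 and 0.895 FPKM in CS-exposed lens FC, on 1 to 17 reads per library. The log2 fold change was 1.83 ± 0.40 SE, and 0.83 with a pseudocount of 1 FPKM in place of 0.1. Gm14966, whose exons overlap those of the kinase gene Map4k2 and of the splicing factor gene Sf1, was at 0.775, 2.42, 1.79 and 1.45 FPKM and 0.657, 0.601, 0.751 and 0.641 FPKM. Gm11520, which starts 183 bases from the histone acetyltransferase gene Kat7, was at 1.52, 1.53, 1.43 and 1.58 FPKM and 1.204, 1.03, 0.619 and 0.807 FPKM. Both were lower in CS-exposed lens FC, by 1.07 and 0.70 on the log2 scale.

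**Figure D3:**
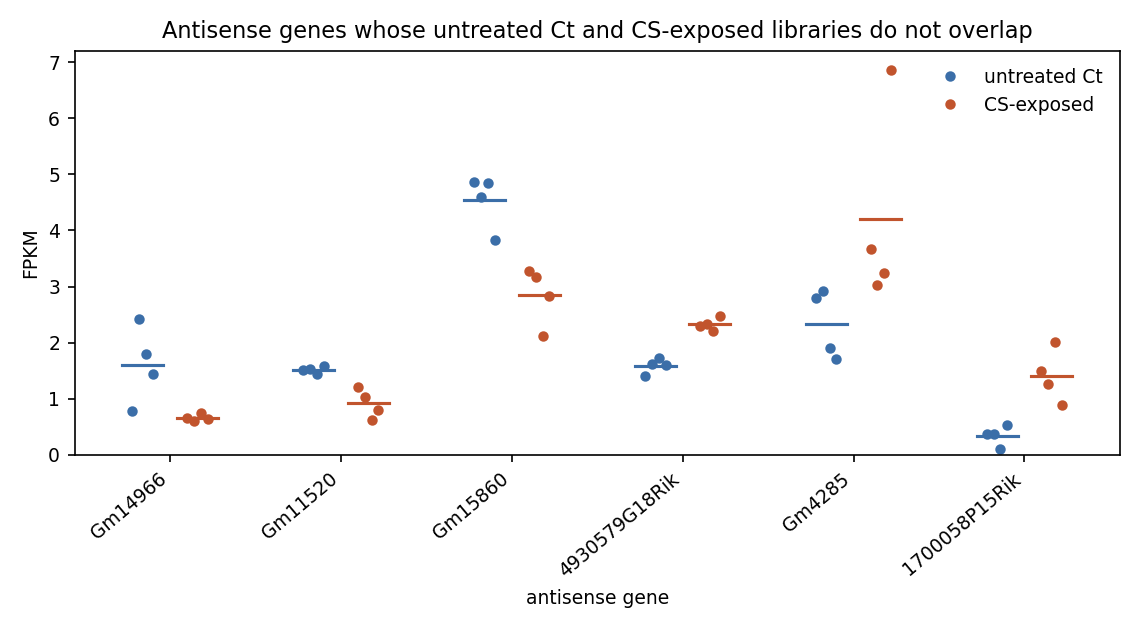
FPKM of the 6 antisense genes whose libraries did not overlap between groups. Points are single libraries (4 untreated Ct, 4 CS-exposed) and lines are group means. Gm14966, Gm11520 and Gm15860 are lower and 4930579G18Rik, Gm4285 and 1700058P15Rik higher in CS-exposed lens FC, and in Gm14966 the lowest untreated Ct value (0.775 FPKM) is just above the highest CS-exposed value (0.751 FPKM).

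Rab10os had more reads than most (146 to 293) and a limma p under 0.05. This gene overlaps the end of Rab10, which encodes a small GTPase of membrane traffic. It was at 1.91, 2.49, 1.98 and 2.01 FPKM in untreated Ct and at 2.73, 3.17, 3.48 and 2.39 FPKM in CS-exposed lens FC, with 1 CS-exposed value inside the untreated Ct range (log2 fold change 0.46 ± 0.15 SE, limma p = 0.00901, voom p = 0.00548, exact permutation p = 0.0571). Gm11266, within Nfib (a nuclear factor I gene), was at 2.77, 2.91, 4.37 and 3.39 FPKM and at 4.29, 4.26, 4.18 and 4.84 FPKM, on 70 to 133 reads. The CS-exposed values were close together and 1 untreated Ct value lay above 3 of them (log2 fold change 0.40 ± 0.14 SE, limma p = 0.0153, voom p = 0.0703, exact permutation p = 0.114).

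The 5 largest fold changes were found in genes with few reads, and 4 of these (1700058P15Rik, Gm15948, Gm9320 and Gm15445) passed the minimum only in the group where they were higher. Gm15948, inside Limch1 (an actomyosin regulator), was at 1.62, 1.13, 1.92 and 0.686 FPKM in untreated Ct and at 0.4704, 0, 0.967 and 0.115 FPKM in CS-exposed lens FC, on 0 to 18 reads, with a log2 fold change of −2.002 ± 0.65 SE. The value was −0.77 with a pseudocount of 1 FPKM and −3.02 with one of 0.01 FPKM. Gm9320, which starts 221 bases from the homeobox repressor gene Tgif1 and is a processed pseudogene in GENCODE, was at 1.93, 1.14, 1.84 and 2.12 FPKM and 0.749, 1.27, 0.2200 and 0.522 FPKM, on 2 to 19 reads, with a log2 fold change of −1.39 ± 0.39 SE (−0.73 with a pseudocount of 1 FPKM). Gm15445, for which no partner was found, was at 1.25, 0.672, 1.21 and 1.47 FPKM and 0, 0.215, 0.485 and 1.92 FPKM, and its highest value was the fourth CS-exposed library, against the sign of its log2 fold change of −1.46 ± 0.72 SE. Gm17112 at Gnb2 was listed at 0 in 1 CS-exposed library and differed by −1.48 ± 0.86 SE, with limma p = 0.113, voom p = 0.0406 and exact permutation p = 0.286. Without that library, CS-exposed replicate 4, the log2 fold change was −0.37.

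A further 5 genes with limma p between 0.0217 and 0.0409 overlapped between groups. Lower were Gm17135 at Rsph10b and 5430417L22Rik, and higher were RP23-378G22.3 in Csnk1d and Frmd8os at Frmd8. Dmrta2os, given above, is the fifth. By voom only 5430417L22Rik of these 5 was at p under 0.05 (0.0231). The last of the 16, Gm14167 beside Fkbp1a, passed the minimum only in untreated Ct and is given without a test, at 1.17 FPKM in untreated Ct and 0.652 FPKM in CS-exposed lens FC. Each of the 5 lost a limma p under 0.05 when 1 of several single libraries was left out, and so did Gm11266 without untreated Ct replicate 1. 5430417L22Rik is the protein-coding gene Inafm2 in GENCODE M21, has no opposite-strand partner there and was at 2.53 ± 0.494 FPKM in untreated Ct and 1.85 ± 0.314 FPKM in CS-exposed lens FC.

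Of 89 partners tested, 0 were at limma p under 0.05 (beside 4.83% of all genes tested), 0 by voom (beside 4.95%) and 0 without overlap between groups (beside 3.08%), and no adjusted p was under 0.05. The median absolute log2 fold change was 0.07 in the partners, 0.25 in the antisense genes and 0.08 over all genes tested, and the partners had more reads than the antisense genes. The log2 ratio of antisense gene to partner thus differed between groups by nearly as much as the antisense gene itself, by −0.66 for Gm15860, 0.55 for 4930579G18Rik, 0.75 for Gm4285, 0.44 for Rab10os and 1.74 for 1700058P15Rik. These pairs were chosen for the difference of the antisense gene, and the ratios are given without a test.

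**Figure D4:**
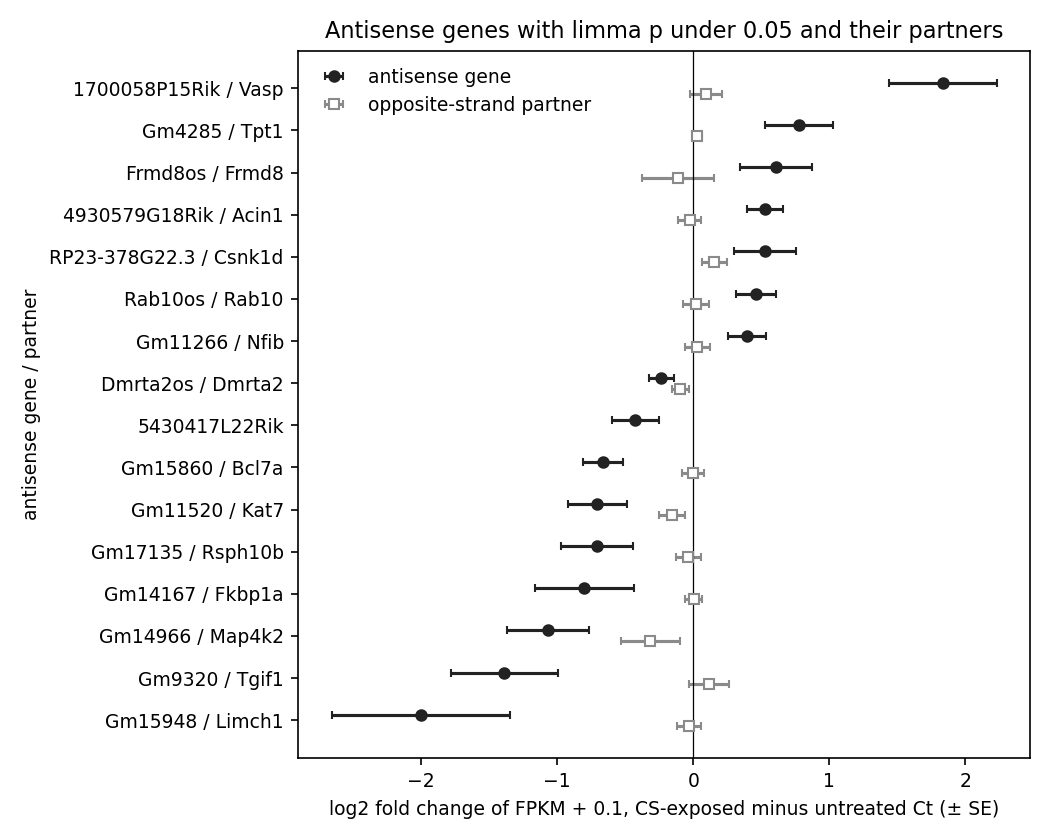
Log2 fold change of FPKM + 0.1 (CS-exposed minus untreated Ct, ± SE) of the 16 antisense genes with limma p under 0.05 (filled circles) and of the partner of 15 of them (open squares). Of the 16, 7 lie above 0 and 9 below, and the squares lie near 0, farthest for Map4k2 at −0.32.

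The spread between libraries was larger in antisense genes than in most genes. The median SD of log2 values within groups was 0.456 in the 105 genes and 0.168 over all genes tested. In ranges of reads, the values were closer. Under 50 reads the median SD was 0.567 in 70 antisense genes and 0.532 in 639 genes, from 50 to under 200 reads it was 0.319 and 0.268, and from 200 reads on it was 0.160 in 7 antisense genes and 0.129. The variance of the reads within groups was more than 2 times that of counting alone in 79 of the 105 genes and less than it in 4, among them 4930579G18Rik, Gm11520 and Gm15860. Under 50 reads the median of this ratio was 3.57 in antisense genes and 3.83 in all genes tested. It was 4.73 and 4.41 from 50 to under 200 reads, and 7.08 and 5.26 from 200 reads on.

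The most variable genes were Snhg9, Gm17112, Gm14286, Gm16104 and Gm16001, with an SD between 1.40 and 1.94 on the log2 scale. Each of them was listed at 0 in at least 1 library. Snhg9 was at 0.275, 1.66, 0.705 and 0.906 FPKM in untreated Ct and at 1.29, 0, 0 and 3.03 FPKM in CS-exposed lens FC, on at most 12 reads.

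**Figure D5:**
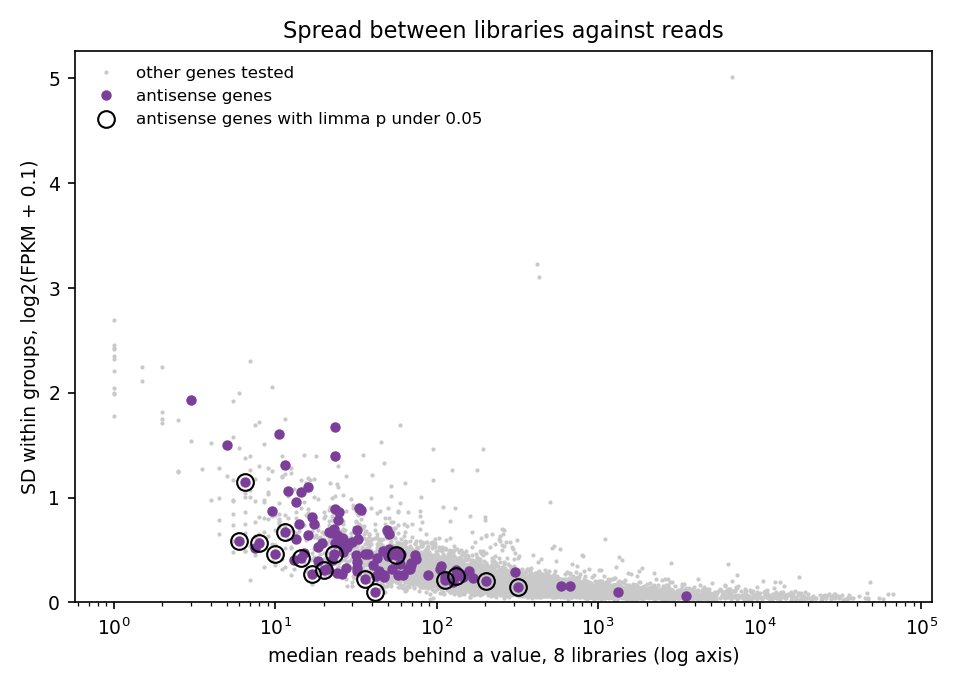
SD within groups of log2(FPKM + 0.1) against the median reads behind a value (log axis) for the 105 antisense genes and the other genes tested. Medians under 1 read are drawn at 1. The spread falls as reads rise, the antisense genes follow the other genes, and 11 of the 16 circled genes with limma p under 0.05 lie under 50 reads.

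Genes that process antisense or double-stranded RNA were also read from the table. They comprise RNA editing enzymes, the microRNA processing and Argonaute proteins, the RNA exosome, exonucleases, double-stranded RNA binding proteins and the Polycomb repressive complex that binds several lncRNAs. Of 41 listed genes, 36 were tested and 2 were at limma p under 0.05 (5.56%, near the 4.83% of all genes). Both encode subunits of the exosome, with Exosc8 lower at 2.20 and 1.66 FPKM (log2 fold change −0.39 ± 0.13 SE) and Exosc9 higher at 1.73 and 2.40 FPKM (0.48 ± 0.18 SE) in untreated Ct and CS-exposed lens FC. Their adjusted p was 0.956, and the other 8 exosome genes tested had a limma p of at least 0.251. Drosha was at 15.6 FPKM in both groups, and Ifih1 was below the minimum at 0.00646 FPKM in untreated Ct and listed at 0 in CS-exposed lens FC.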

How the data were processed

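RNA of 8 pools of lens FC was sequenced with a NEB Next Ultra RNA kit. The authors used STAR 2.5 for alignment to GRCm38 and HTSeq 0.6.1 for gene counts, and the values they deposited are FPKM per library. The annotation release and the strand setting are not given in the sources used here. The deposited group comparison of the authors (log2 fold change, p-value and adjusted p-value, made with DESeq2) and the pooled means of the authors were not used. The antisense genes, gene lists and tests were chosen with earlier results of these data known.

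The fit took log2(FPKM + 0.1) of every gene whose mean reached 1.0 FPKM in 1 group or both, and was made in limma 3.58.1 (R 4.3.3) by lmFit and eBayes with a variance trend, with two-sided p adjusted by Benjamini-Hochberg over 9794 genes. Fold changes on this scale understate changes of low genes. Single values were compared by exact permutation over 70 assignments. Whole reads were recovered from the steps of FPKM values (tolerance 0.02 reads) for 99.8% of tested genes and also tested with limma voom. Depth was estimated at 18100000 to 23300000 fragments per library, and a median of 32 reads lay behind an antisense value. Genes were matched by symbol, gene name or synonym to GENCODE M21 (102 of 105), and partners are opposite-strand genes that overlap or start within 2 kb. The exonic length implied by the FPKM was within 5% of the M21 length in 63 of the 102 genes. For Airn it was 1375 bases, against 3597 in M21. Exon overlaps, exon numbers and polyadenylation signals are those of M21, and may not be those of the gene models that were counted. Named are the highest genes, those with the smallest p, the largest fold change, SD or ratio to the partner, those without overlap of groups, those next to the minimum, a list of known antisense RNAs, and those with a marker gene as partner or leading their arrangement. A pair that this rule names is not reported here. The fit was tested on simulated data. Python 3.11.15, numpy 2.4.6, pandas 2.3.3, scipy 1.17.1 and matplotlib 3.10.9 were used.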

Additional observations from a re-analysis of the deposited data

Results flagged for a closer look

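In 88 groups of 4 libraries (44 named antisense genes in 2 groups) a gap between the most extreme library and the nearest other one beyond Dixon's critical value for 4 values was found 8 times, and chance flags about 1 in 20 groups. In CS-exposed replicate 4, Gm4285 was at 6.87 FPKM (next value 3.68 FPKM), Gm11266 at 4.84 FPKM (next 4.29 FPKM) and 5430417L22Rik at 2.32 FPKM (next 1.72 FPKM), all as the highest of the group. In CS-exposed replicate 3, Gm16104 was highest at 2.67 FPKM (next 0.576 FPKM, 22 reads) and Gm16022 lowest at 1.84 FPKM (next 2.94 FPKM). In CS-exposed replicate 2, Gm12867 was highest at 4.36 FPKM (next 1.72 FPKM) and Tspan32os highest at 1.51 FPKM (next 0.700 FPKM). In untreated Ct replicate 4, Tspan32os was lowest at 0.624 FPKM (next 1.15 FPKM, 11 reads).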

How the results depend on the processing

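With voom on recovered reads, 10 antisense genes in place of 16 were at p under 0.05, of which 3 in place of 7 were higher. Partners at p under 0.05 numbered 0 as reported, 1 without a variance trend, 1 with the replicate block and 0 to 2 when libraries were left out in turn. The number of antisense genes was 189 at a minimum of 0.5 FPKM, 54 at 2 FPKM and 103 to 114 when libraries were left out, and 47 in place of 80 genes overlapped a partner when only exons were counted. When libraries were left out in turn, 13 to 17 genes were at p under 0.05 (7 to 10 lower, 5 to 9 higher). The log2 fold change of Prox1os (−0.03) ranged from −0.076 to 0.0090 when libraries were left out, and was above 0 without untreated Ct replicate 1 or CS-exposed replicate 2 (0.0037). No setting gave an adjusted p under 0.05. Of the 16 genes, 7 stayed under 0.05 in every setting that could be fitted (1700058P15Rik, Gm15860, Gm9320, Gm14966, Rab10os, Gm4285 and Gm15948), and 9 when each library was left out in turn. Of the 7, 1700058P15Rik, Gm9320, Gm14966 and Gm15948 passed the minimum only in the group where they were higher, so this is no sign of stability for them. A limma p under 0.05 was lost by Gm11266 without untreated Ct replicate 1, Dmrta2os without untreated Ct replicate 3 or 4 or CS-exposed replicate 2 or 4, Gm17135 without untreated Ct replicate 1 or 4 or CS-exposed replicate 4, 5430417L22Rik without untreated Ct replicate 2 or 3 or CS-exposed replicate 1, 2 or 3, RP23-378G22.3 without untreated Ct replicate 3 or 4 or CS-exposed replicate 2, 3 or 4, Frmd8os without untreated Ct replicate 4 or CS-exposed replicate 1, 2 or 3 (log2 fold change 0.31 without untreated Ct replicate 4) and Gm14167 without untreated Ct replicate 1, 2 or 3 or CS-exposed replicate 1 or 2 (log2 fold change −0.53 without CS-exposed replicate 2). By voom it was lost by Dmrta2os, Gm11266, Frmd8os, 4930579G18Rik, RP23-378G22.3, Gm17135, Gm11520 and Gm14167, without a variance trend by Dmrta2os and Frmd8os, with no minimum by Frmd8os and Gm14167, and with the replicate block by 5430417L22Rik and RP23-378G22.3. Gm11520 and Gm14167 passed the minimum only in untreated Ct. The cause of these changes was not tested.

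The replicate numbers are not stated to pair the pools. Deviations of same-numbered libraries correlated at 0.01, 0.08, 0.11 and 0.16 across genes, and replicate 1 correlated higher with another number (0.05). With the replicate block 18 antisense genes were at p under 0.05 (11 lower), with a smallest adjusted p of 0.430. Few reads lay behind most antisense values, under 50 in 67.0% of them. The variance of the reads within groups was also more than 2 times that of counting alone in 79 antisense genes. How much each of these limits the precision was not tested.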
